A study of Mus musculus with 7 samples.

Results

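Genes for the proteins of the cytosolic ribosome were compared between blastemas, the cell masses that rebuild an amputated digit tip, and uninjured digits of C57Bl/6 mice. The members were chosen by gene symbol: Rps and Rpl followed by a number, Rplp0 to Rplp2 and Rpsa, without the Rps6 kinases. They numbered 67 of 22180 genes with a probe set that lists 1 symbol, 25 of the small and 42 of the large subunit. Where a gene had several probe sets, the main one was selected on its mean level over all arrays (the brightest), so level was used in the choice and the difference between the groups was not. The members had 108 probe sets in all. The groups were 4 uninjured digits and 3 blastemas harvested 2 weeks after amputation, all of the same strain, and the labels call the samples of each group biological replicates. No allele, transgene, drug, age or pooling is given in the labels. Levels are log2 array signals, and a difference, on the same scale, is blastema less uninjured digit, so that a negative value means lower in the blastema.

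The ribosome is the machine that makes all cytosolic protein. Its small subunit decodes the mRNA, and its large subunit joins the amino acids and lets the new chain out through a tunnel. Each subunit is a scaffold of ribosomal RNA with a set of small basic proteins, most of which are needed in a single copy per ribosome, so cells tend to make them in step. The mRNAs of these proteins are among the most abundant of any cell. They start with a run of pyrimidines, the TOP motif, through which the mTOR kinase controls their translation.

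The ribosomal protein genes were lower in the blastema almost throughout. Of the 67 members 37 fell, 0 rose and 30 did not pass the test (adjusted p under 0.05 by limma over all 22180 genes). That is 55.2% of the members, against 4.66% of all genes called lower and 4.98% called higher. The difference was below 0 in 63 members, and its median was -0.41, against -0.0054 over all genes. At an unadjusted p under 0.05, 45 members were lower and 0 higher in the same limma fit, against 12.7% and 12.2% of all genes. The blastema arrays all lay below the uninjured arrays in 44 members (65.7%), and all above them in 0. The same separation downward was seen in 10.6% of all genes. The middle 50% of members lay between -0.65 and -0.19, and the extremes were -1.20 and 0.06. Ribosomal protein genes have many processed copies in the genome, and whether a probe set reads the gene it names, its copies or both was not tested, here or in the values that follow. In a bulk sample a lower share of cells that carry much ribosomal protein mRNA and less of it per cell cannot be told apart.

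**Figure D1:**
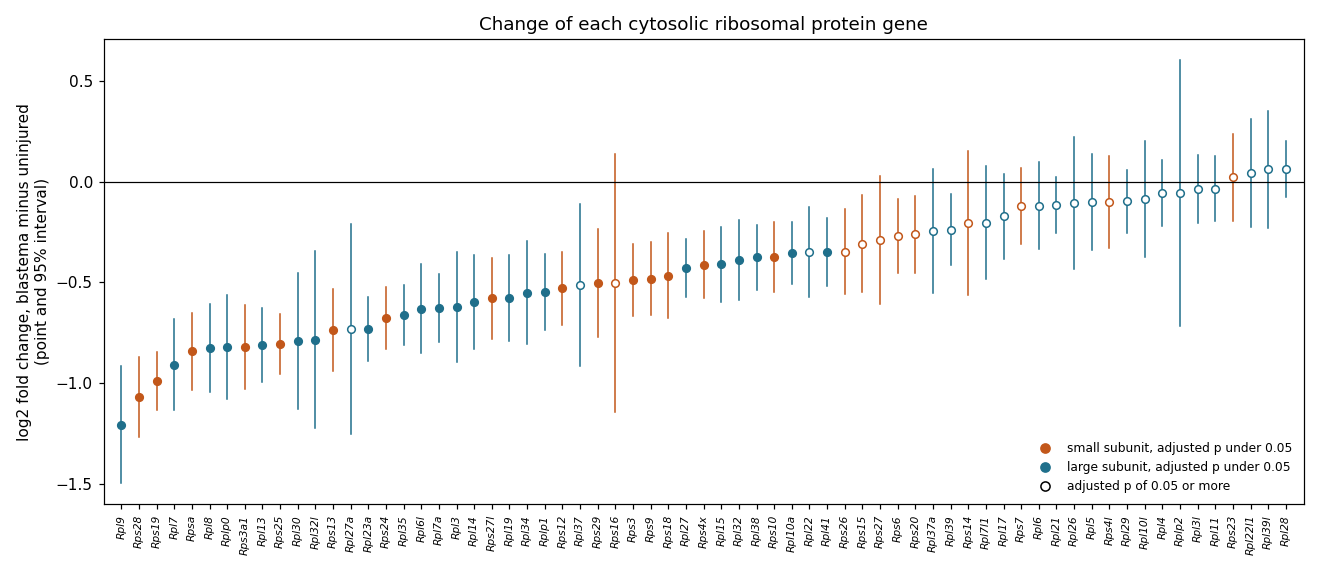
Log2 fold change (blastema minus uninjured digit) of each of the 67 genes, ordered from the largest fall, with its 95% interval from limma. Filled points passed an adjusted p of 0.05: 37 genes, all below 0.

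The fall was seen on every blastema array. With each gene set to its own mean, the median of the members was 0.13, 0.25, 0.22 and 0.16 on uninjured arrays 1 to 4. It was -0.29, -0.15 and -0.30 on blastema arrays 1 to 3. The same median over all genes stayed between -0.0066 and 0.0093 on the 7 arrays. Blastema array 2 was the nearest to the uninjured digits, and the groups did not overlap.

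**Figure D2:**
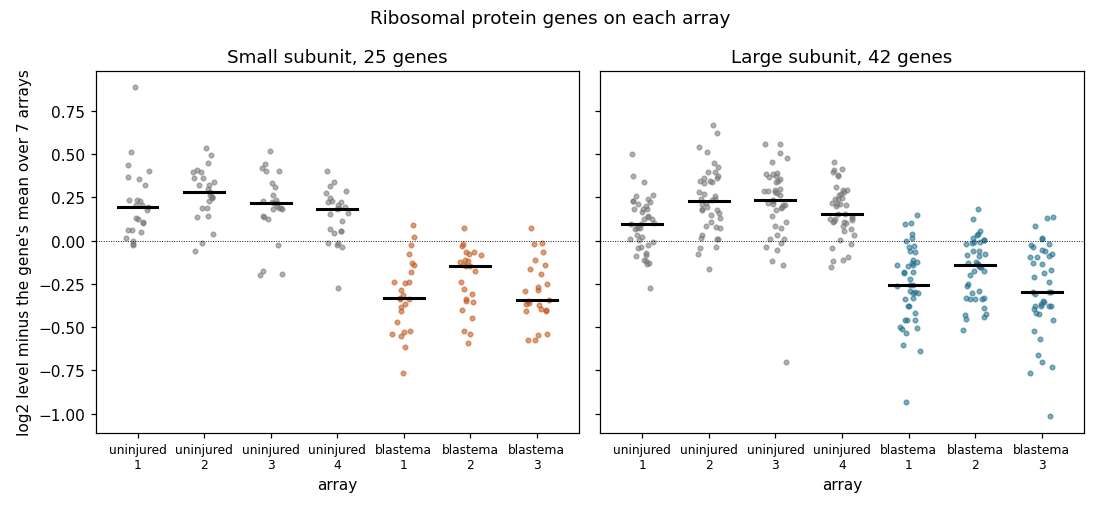
Level of each small subunit gene (left) and large subunit gene (right) on each array, on the log2 scale, minus that gene's mean over the 7 arrays. Black bars are medians; they lie above 0 on the 4 uninjured arrays and below 0 on the 3 blastema arrays in both panels.

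Of the 25 small subunit genes 15 fell, 0 rose and 10 did not pass, with a median of -0.48. Rps28, a protein near the exit of the mRNA channel, lay at 10.54, 10.64, 10.62 and 10.44 in uninjured digit and at 9.34, 9.58 and 9.56 in blastema. It fell by 1.07 ± 0.08 (SE), 52.3% on the linear scale (adjusted p = 0.0015). Rps19, needed to mature the small subunit's RNA and mutated in Diamond-Blackfan anaemia, lay at 9.66, 9.51, 9.57 and 9.55 in uninjured digit. In blastema it lay at 8.53, 8.61 and 8.60, and the 2 groups were each tight (SD 0.06, n = 4, and 0.04, n = 3). The difference was -0.99 ± 0.06 (SE), or 49.7% lower (adjusted p = 0.00126). Rpsa, also known as the laminin receptor precursor, lay at 10.96, 11.14, 10.96 and 10.96 against 10.12, 10.30 and 10.07. It fell by 0.84 ± 0.08 (SE) (adjusted p = 0.00245), and no blastema array came near the uninjured ones in this brightest probe set. Its further probe set, at a level of 6.72, differed by -0.23 and did not pass (limma adjusted p = 0.259).

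Rps3a1 (-0.82), Rps25 (-0.81), Rps13 (-0.74) and Rps24 (-0.68) fell by similar amounts, followed by Rps27l (-0.58), Rps12 (-0.53), Rps29 (-0.50), Rps3 (-0.49), which lines the mRNA entry, Rps9 (-0.48), Rps18 (-0.47), Rps4x (-0.41) and Rps10 (-0.37). Rps6, the protein that the S6 kinases phosphorylate, lay at 12.02, 12.21, 12.24 and 12.08 in uninjured digit and at 11.78, 11.94 and 11.88 in blastema. The groups did not overlap, but its difference of -0.27 (95% interval -0.45 to -0.09) did not pass (adjusted p = 0.0804). Rps26 (-0.35, adjusted p = 0.0555) was the member closest to the threshold on the outside. The other small subunit genes that did not pass were Rps16 (-0.50), Rps15 (-0.31), Rps27 (-0.29), Rps20 (-0.26), Rps14 (-0.21), Rps7 (-0.12), Rps4l (-0.10) and Rps23 (0.02). Without blastema array 3, Rps9 (adjusted p = 0.0536) and Rps4x (0.0589) did not pass, and Rps10, Rps18 and Rps29 each lost the call in 4 or 5 of the 7 omissions of 1 array (highest adjusted p 0.0887, 0.0763 and 0.136).

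Of the 42 large subunit genes 22 fell, 0 rose and 20 did not pass, with a median of -0.38. Rpl9 had the largest fall among the brightest probe sets. It lay at 8.69, 8.86, 8.67 and 8.61 in uninjured digit and at 7.26, 7.76 and 7.49 in blastema, a difference of -1.20 ± 0.12 (SE), or 56.6% lower (adjusted p = 0.00298). Its blastema arrays were more spread (SD 0.25, n = 3) than its uninjured arrays (SD 0.11, n = 4), and all of them were lower. Rpl7 lay at 9.87, 9.97, 10.17 and 9.99 against 9.11, 9.22 and 8.95, and fell by 0.91 ± 0.10 (SE) (adjusted p = 0.00318).

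The stalk of the large subunit, which recruits the elongation factors, is made of Rplp0, Rplp1 and Rplp2. Rplp0 lay at 10.48, 10.54, 10.53 and 10.42 in uninjured digit and at 9.88, 9.72 and 9.41 in blastema, a fall of 0.82 ± 0.11 (SE) (adjusted p = 0.00628). Rplp1 fell by 0.55 ± 0.08 (SE) (adjusted p = 0.0083). The further probe sets of Rplp0 and Rplp1, at levels of 6.21 and 6.84, differed by -0.31 and -0.45 and did not pass. The only probe set of Rplp2 with 1 symbol was dim, at a mean of 5.19, and its difference was -0.06 (95% interval -0.71 to 0.60). That interval held the difference of Rplp1 but not that of Rplp0. With so dim a signal it shows neither a fall of the mRNA nor its absence. Of the proteins at or near the exit tunnel, Rpl23a (-0.73), Rpl35 (-0.66) and Rpl19 (-0.58) fell, and Rpl17 (-0.17), Rpl26 (-0.11) and Rpl39 (-0.24) did not pass. The probe sets that fell were bright, at mean levels of 10.38, 10.93 and 11.13. The others were dim, at 6.24, 6.30 and 5.88, so the split follows brightness. Whether these genes differ in response was not tested. Rpl3, close to the peptide bond centre, fell by 0.62 in its brightest probe set, at a level of 9.02, but not in its second, at 7.99 (-0.12, adjusted p = 0.703). Rpl8, a neighbour of the same centre, fell by 0.83. Rpl5 and Rpl11, which bind the 5S RNA and the p53 regulator Mdm2, differed by -0.10 (95% interval -0.34 to 0.14) and -0.03 (-0.20 to 0.13). Each had only 1 probe set, a dim one, at mean levels of 6.44 and 5.84. Their intervals therefore set no limit on the change of the mRNA. Rpl38, which is needed for translation of Hox mRNAs and for skeletal patterning in the mouse, lay at 11.14, 11.18, 11.21 and 11.24 in uninjured digit and at 10.70, 10.86 and 10.90 in blastema. It fell by 0.37 ± 0.07 (SE) (adjusted p = 0.0174), 1 of the smaller falls.

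The other large subunit genes that fell were Rpl13 (-0.81), Rpl30 (-0.79), Rpl6l (-0.63), Rpl7a (-0.63), Rpl14 (-0.60), Rpl34 (-0.55), Rpl27 (-0.43), Rpl15 (-0.41), Rpl32 (-0.39), Rpl10a (-0.35) and Rpl41 (-0.35). Rpl27a (-0.73) and Rpl37 (-0.51) had as large a difference as many of these and did not pass (adjusted p = 0.0901 and 0.115), each with a blastema SD above that of the uninjured arrays (0.52 and 0.39, n = 3). Rpl32l passed with the adjusted p closest to the threshold on the inside (0.0424), but all its arrays lay between 3.52 and 4.90, in the range of olfactory receptor genes (proxy for background 5.51), so no size is read from it. The single probe set of Rpl30 had a mean level of 5.23, also under that proxy, and no size is read from its fall. Without blastema array 3 the members that fell numbered 24, and 21 of the 37 calls held in all 7 omissions of 1 array. Of the calls lost, Rpl14 (adjusted p = 0.0624) and Rpl19 (0.0541) were lost by leaving out that array and no other. Rpl3, Rpl10a, Rpl15, Rpl30, Rpl32, Rpl32l, Rpl34, Rpl38 and Rpl41 each lost the call in 2 to 6 of the 7 omissions (highest adjusted p 0.0563 to 0.145).

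The sequence around the start of these genes is shown for 6 members that carry the pyrimidine run that gives TOP mRNAs their name, and for the 2 small subunit genes with the largest falls. RefSeq promoters (GRCm38.p6) were found for 52 of the 67 members, with 61 start sites. Each line gives 60 bases before the annotated start and 20 after it, 5′ to 3′ on the gene's strand. Capitals mark the longest run of C or T next to the start in Rpl7a (chr2:26910747-26910826, plus strand), Rpl35 (chr2:39005112-39005191, minus), Rps9 (chr7:3703981-3704060, plus), Rps18 (chr17:33955646-33955725, minus), Rpl38 (chr11:114668520-114668599, plus) and Rpl28 (chr7:4792905-4792984, plus).
Rpl7a: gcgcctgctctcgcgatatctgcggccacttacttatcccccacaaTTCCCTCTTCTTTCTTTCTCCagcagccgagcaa
Rpl35: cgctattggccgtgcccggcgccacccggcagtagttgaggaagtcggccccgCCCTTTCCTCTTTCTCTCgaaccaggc
Rps9: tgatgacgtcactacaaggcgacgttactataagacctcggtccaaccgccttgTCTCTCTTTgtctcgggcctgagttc
Rps18: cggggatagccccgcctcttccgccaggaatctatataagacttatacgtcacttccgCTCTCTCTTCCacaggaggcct
Rpl38: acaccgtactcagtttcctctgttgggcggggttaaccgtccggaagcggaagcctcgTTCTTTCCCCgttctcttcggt
Rpl28: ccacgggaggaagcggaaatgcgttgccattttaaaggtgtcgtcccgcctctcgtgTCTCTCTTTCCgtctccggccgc
In Rps19 (chr7:24884532-24884611, plus, the first of its 3 starts) and Rps28 (chr17:33824543-33824622, minus) capitals mark the palindrome TCTCGCGAGA.
Rps19: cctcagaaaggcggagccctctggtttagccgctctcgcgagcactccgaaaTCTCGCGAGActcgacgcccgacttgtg
Rps28: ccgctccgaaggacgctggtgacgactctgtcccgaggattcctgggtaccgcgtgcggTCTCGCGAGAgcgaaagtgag

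A run of at least 8 pyrimidines that reached into the stretch from 10 bases before to 20 after the start was found at 28 of the 61 member starts (45.9%) and at 17.1% of all 32851 starts in the table. Searched on both strands over 250 bases before to 50 after the start, the palindrome TCTCGCGAGA lay at 6 member starts (9.84%) and at 0.466% of all starts, and CCGGAAG, the core of the ETS factor motif, at 23 (37.7%) and 8.86%. AAGATGG, the core of the YY1 motif, lay at 11.5% against 6.34%, and TATAAA at 9.84% against 13.6%. These motifs were picked after the sequences were seen. Starts of 1 gene can lie close together, so a single site can count at several starts, as the palindrome of Rps19 does at its first and second. The 27 members with a pyrimidine run held 17 that fell, with a median difference of -0.47, where 4.66% of all genes were called lower. The 25 without held 11 that fell, with a median of -0.35, and their median level was lower (6.79 against 9.94). A shorter run, or one away from the annotated start, was not counted, so these 25 are not shown to lack the TOP motif. Rpl28 carries the run and did not fall. The split by CCGGAAG went the other way. Of the 23 members with it 12 fell (median -0.37, median level 7.08). Of the 29 without it 16 fell (median -0.43, median level 9.15).

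The size of the difference varied with the brightness of the probe set. Brightness reflects the probes as well as the mRNA, so it does not rank the genes by abundance. Between levels of 9 and 12 the 28 members were the most uniform: the groups did not overlap in 28 of 28, and 27 fell, with a median of -0.61. Of the 1131 other genes in that range 27.2% did not overlap in that direction and 17.3% fell, with a median of -0.04. Over a level of 12 0 of the 5 members fell (Rpl21, Rpl28, Rpl29, Rpl4 and Rps6), with a median of -0.10. Of these, Rps6 was the 1 member lower at an unadjusted p under 0.05 in limma. Of the 74 other genes in that range 10.8% fell, with a median of -0.16. At an unadjusted p under 0.05 in limma, 31 of those 74 were lower and 5 higher. Rpl28, the only bright member with a difference above 0, lay at 12.45, 12.55, 12.55 and 12.50 in uninjured digit and at 12.51, 12.59 and 12.62 in blastema (0.06, 95% interval -0.08 to 0.20, adjusted p = 0.561). Rpl21, the brightest member, lay at 12.66 to 12.74 against 12.54 to 12.67 (-0.12, interval -0.26 to 0.02). Whether signals this bright follow a change in mRNA in full was not tested, so these differences set no limit on the change of the mRNA.

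Between a background proxy of 5.51 and a level of 9, 8 of 25 members fell (median -0.31), against 6.24% of the other genes in that range. At or under the proxy 2 of 9 did (median -0.12), against 0.694%. The proxy is the level below which 95% of the 1088 measured olfactory receptor genes lay. Several members that every cell needs, Rps20 and Rplp2 among them, had only a dim probe set, so the array gives no firm level for them. Spearman's rho between level and difference was -0.25 over all 67 members, -0.14 over the 61 above the proxy and 0.71 over the 33 above a level of 9, across genes of the same 7 arrays, as a description. The split at 9 and 12 was set after the values were seen.

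Further probe sets existed for 25 of the members, 41 in all. Some were no new reading: 6 of Rps12, 2 of Rpl23a and 2 of Rps19 had identical values on all arrays. That left 34 distinct further readings, of 24 members. Of these 12 fell (35.3%) and 0 rose, in a limma fit over all 23521 probe sets with 1 symbol, of which 4.69% were lower. Of the 13 with a level over 7, 10 fell, with a median of -0.62, and of the 21 at or under 7, 2 fell, with a median of -0.11. At an unadjusted p under 0.05, 1 of the 34 was higher. With the copies counted, 19 of the 41 fell. The 3 readings over 7 that did not fall were those of Rpl3, Rpl21 (-0.14) and Rpl29 (-0.12), and in Rpl21 and Rpl29 the brightest probe set did not fall either.

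Rpl4, which lines the exit tunnel, gave the widest disagreement. Its brightest probe set lay at 12.17, 12.33, 12.36 and 12.40 in uninjured digit and at 12.26, 12.28 and 12.24 in blastema (-0.06, adjusted p = 0.672). Its further probe set lay at 8.94, 9.18, 8.84 and 8.88 against 7.60, 7.39 and 7.54, a fall of 1.45 ± 0.10 (SE) (adjusted p = 0.00118). Which of them follows the mature mRNA was not tested. The 3 distinct readings of Rps12 fell by 0.53, 0.86 and 0.67, and 4 of the 5 probe sets of Rpl41 fell by 0.35 to 0.54. The further reading of Rps24 and that of Rpl13 over a level of 7 fell as well (-0.62 and -0.70). Those of Rpsa, Rplp0 and Rplp1, all under a level of 7, did not pass, so these calls rest on the brightest probe set alone. In Rps28, Rpl9, Rpl7 and Rps19 the remaining probe set was dim, at 5.24, 4.99, 5.49 and 5.72, and gave differences of 0.11, -0.11, -0.02 and -0.15, none of which passed, so their large falls rest on 1 reading each (Rps19 has it as 2 identical probe sets).

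**Figure D3:**
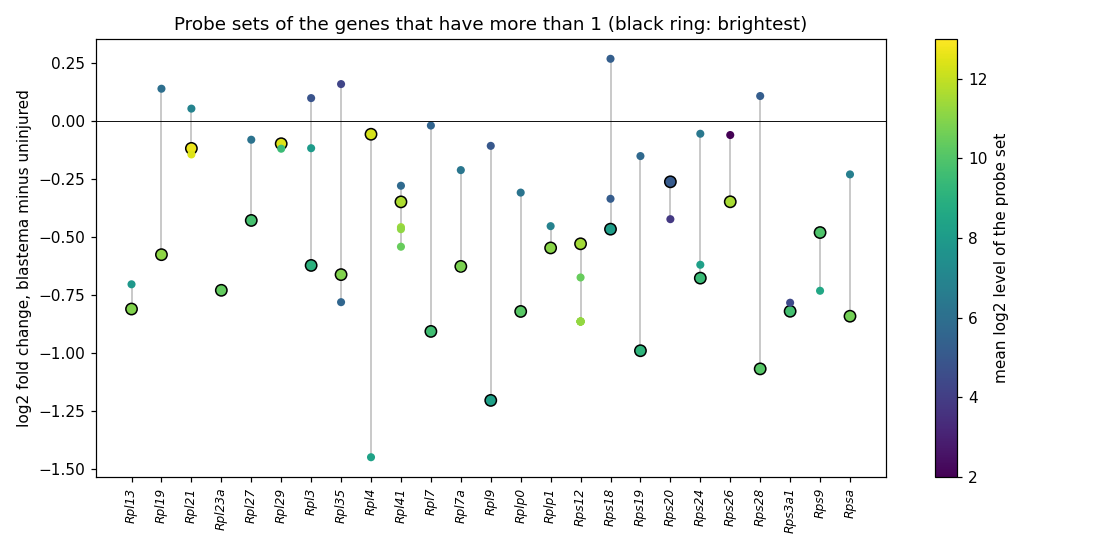
Log2 fold change (blastema minus uninjured) of every probe set of the 25 members that have more than 1, coloured by mean log2 level. Black rings mark the brightest probe set; dim probe sets, in dark colours, lie mostly nearer 0, and Rpl4 is the gene whose readings differ most.

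Probe sets that list several symbols, a ribosomal protein symbol among them, were left out of the members because their signal cannot be given to 1 gene. There were 57 of them, and they held all readings of 12 further ribosomal protein symbols. In a limma fit over all 41345 probe sets 27 of the 57 were lower and 0 higher, with a median of -0.43, against 3.92% lower among all probe sets. At an unadjusted p under 0.05, 40 were lower and 0 higher. Of the 35 with a level over 7, 25 were lower.

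The subunits lay close to each other. The small subunit median (-0.48) was lower than the large subunit median (-0.38) by 0.10, and 15 of its 25 genes fell, against 22 of 42. Between levels of 9 and 12, where the readings were most uniform, the medians were -0.60 over 10 small and -0.61 over 18 large subunit genes. Between the background proxy and 9 they were -0.37 over 13 small and -0.24 over 12 large subunit genes, of which 6 and 2 fell. Over all members the difference between the medians shrank to -0.035 without uninjured array 1, -0.053 without blastema array 2 and -0.035 without blastema array 3. No test was made of it, since it is a score over chosen genes.

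Several members are named as relatives of a main gene, some with a restricted pattern. Of 9 such relatives 3 were called lower (33.3%, against 4.66% of all genes): Rps27l, Rpl6l and the dim Rpl32l. Rpl3l, the muscle relative of Rpl3, lay at 4.85 to 5.08 in uninjured digit and 4.85 to 4.95 in blastema, under the background proxy. The testis relative Rpl10l was dimmer still, the dimmest member, at a mean of 3.68. Rpl22l1, whose product can stand in for Rpl22, had means of 4.84 ± 0.19 (SD, n = 4) and 4.88 ± 0.10 (SD, n = 3), and Rpl22 itself differed by -0.35 (adjusted p = 0.0651). Rpl39l differed by 0.06 and its main gene Rpl39 by -0.24, neither passing, at dim mean levels of 5.86 and 5.88. Rpl7l1, at a mean level of 5.43, differed by -0.20. Rpl7 fell by 0.91 in its brightest probe set, at 9.61, but differed by -0.02 in its further one, at 5.49. Rpl6l lay at 9.81 to 10.19 in uninjured digit and at 9.36, 9.45 and 9.32 in blastema, and fell by 0.63 ± 0.09 (SE) (adjusted p = 0.00847), while the probe set of Rpl6, with a mean level just below the background proxy, differed by -0.12 and did not pass. Rps27l, a p53 target, lay at 6.73, 6.94, 6.62 and 6.68 in uninjured digit and at 6.16, 6.19 and 6.14 in blastema, and fell by 0.58 ± 0.09 (SE) (adjusted p = 0.00825). Its main gene Rps27 differed by -0.29 (adjusted p = 0.243), and whether the relatives differ from their main genes in response was not tested. Muscle markers were low in both groups, with 4 of 10 above the proxy, and 0 of 4 measured germ line markers were.

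Genes that act with the ribosome were read from lists set up by function. Over all genes 4.66% were called lower and 4.98% higher, and 12.7% and 12.2% at an unadjusted p under 0.05 in limma. Fau, the only measured member of the ribosomal proteins with other names, carries the small subunit protein S30. It lay at 10.84, 10.99, 10.98 and 10.79 in uninjured digit and at 10.21, 10.29 and 10.16 in blastema, a fall of 0.68 ± 0.07 (SE) (adjusted p = 0.00348), and did not pass with the mean of its probe sets (adjusted p = 0.0867) or the dimmest of them (0.534). The list with the median nearest to that of the ribosomal proteins was the translation initiation factors, of which 9 of 30 fell and 0 rose, with a median of -0.35. Their median level was 9.14. Of the genes other than members, 17.3% were called lower between levels of 9 and 12, and 6.24% between the proxy and 9. At an unadjusted p under 0.05 limma gave 20 initiation factors lower and 0 higher. They included the eIF3 subunits Eif3l (-0.70) and Eif3i (-0.63) and the exchange factor subunit Eif2b5 (-0.67), which lost its call on omission of 1 of 4 arrays, uninjured 2 and 4 and blastema 2 and 3 (adjusted p = 0.0566 to 0.106). Of 14 elongation factors and other TOP mRNAs 4 fell and 1 rose, with a median of -0.06. Tpt1, a TOP mRNA for a small calcium-binding protein, fell from 10.35, 10.43, 10.25 and 10.23 to 9.36, 9.29 and 9.30, a difference of -0.998 ± 0.07 (SE) (adjusted p = 0.00126). With its dimmest probe set the difference was -0.079 and did not pass. Eef1a1 (-0.07, adjusted p = 0.605) and Eef2 (-0.01, adjusted p = 0.964), bright TOP mRNAs of elongation, did not pass. Their mean levels were 12.58 and 11.94, and whether signals this bright follow a change in mRNA in full was not tested. Vim, the mesenchymal filament gene, rose by 1.55 ± 0.23 (SE).

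Fewer calls were made among the genes that build ribosomes. Over all genes the shares were 4.66% lower and 4.98% higher, and 12.7% and 12.2% at an unadjusted p under 0.05. Of 30 ribosome assembly genes 3 fell and 0 rose, with a median of -0.11, and at an unadjusted p under 0.05 limma gave 9 lower and 1 higher. Nhp2, of the particles that modify ribosomal RNA, fell by 0.80 ± 0.09 (SE) (adjusted p = 0.00334), and Snu13 by 0.48 (adjusted p = 0.0423), a call lost in 6 of the 7 omissions and with the mean of its probe sets (adjusted p = 0.0568). Of 15 genes of RNA polymerase I and its factors 2 fell, Taf1d (-0.55) and Polr1d (-0.51), with a median of -0.08, and Taf1d lost its call in 6 omissions (up to adjusted p = 0.111) and with the mean of its probe sets (0.108). Of 18 genes of mTOR and TOP mRNA control 0 fell and 2 rose, and at an unadjusted p under 0.05 limma gave 0 lower and 5 higher. Myc, a driver of ribosome building, lay at 8.42, 8.50, 8.58 and 8.44 in uninjured digit and at 8.94, 8.76 and 8.77 in blastema. It rose by 0.34 ± 0.07 (SE) (adjusted p = 0.0308), and the mTOR brake Tsc2 rose by 0.31 (adjusted p = 0.034). Myc did not pass in 6 of the 7 omissions of 1 array (uninjured array 3 the exception), nor Tsc2 in 5 (adjusted p up to 0.117), and both changed sign under reference gene scaling. Mtor (-0.03) and Larp1 (0.04), the TOP mRNA-binding repressor, did not pass. Of 71 mitochondrial ribosomal protein genes 15 fell (21.1%) and 0 rose, with a median of -0.21. At an unadjusted p under 0.05 limma gave 37 of them lower and 0 higher, and no test was made against the cytosolic genes.

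**Figure D4:**
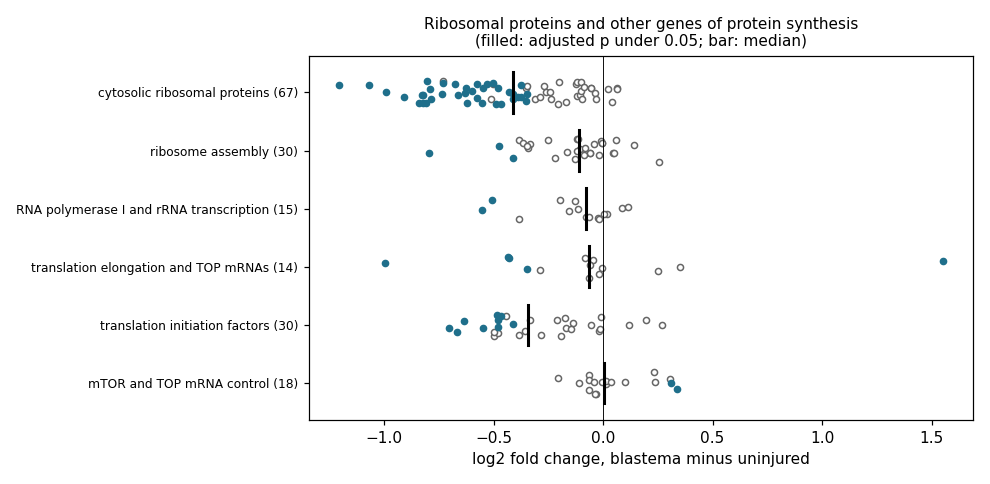
Log2 fold change (blastema minus uninjured) of the 67 ribosomal protein genes and of 5 lists of other genes of protein synthesis. Filled points passed an adjusted p of 0.05 and bars are medians, which lie at -0.41 for the ribosomal proteins and -0.35 for the initiation factors.

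Of all genes outside the members, Rnaseh2a (r = 0.995), Eya3 (0.993) and Cox4i1 (0.992) followed the per-array median level of the members most closely over the 7 arrays. Of the members themselves, Rps24 (0.985), Rps28 (0.982) and Rps25 (0.978) did. These are Pearson correlations over arrays that fall into 2 groups, given as a description. The median level on an array is the level of its middle-ranked member. That member was Rpl9 on the uninjured arrays and blastema array 2, and Rps18 on blastema arrays 1 and 3. Among the blastema arrays this level was highest on array 3. The median with each gene set to its own mean was lowest there (-0.30). The ranking therefore does not show which genes follow the members as a set.

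The groups also differ in makeup. All 6 measured osteoblast and all 6 osteoclast markers rose, and the log2 of the summed osteoblast signal lay at 9.07 to 10.16 in uninjured digit and 13.28 to 13.81 in blastema. The keratinocyte sum lay at 14.98 to 15.19 and 14.87 to 14.99, with 2 of 8 markers lower, and the fibroblast sum at 11.52 to 12.48 and 12.90 to 13.51, with 3 of 6 higher. Of 5 measured markers of blastema mesenchyme 4 rose. The part of these shifts in the fall of the ribosomal protein genes was not tested. The deposited normalization sets all arrays to a like distribution (array medians 5.53 to 5.58), so a change in all mRNA at once would not show. The 8 measured reference genes were themselves higher by a median of 0.26, led by B2m (1.34). Scaling to them moved the median of all genes from -0.01 to -0.40 and that of the members from -0.41 to -0.81, and turned 1105 higher and 1034 lower genes into 511 and 12473.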

How the data were processed

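Total RNA (400 ng per sample) was labelled and hybridised to arrays, per the labels' protocols. The deposited values are log2 probe set levels made with oligo and RMA, per the submitters' processing notes. Their versions, the build and the settings are not stated in the labels. There are no detection calls or read depths, and 7 arrays limit the precision.

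Symbols came from the platform annotation: 23521 probe sets list 1 symbol, 1814 several and 16010 none. The annotation's gene identifiers of all 67 members matched RefSeq. The test was limma 3.58.1 (R 4.3.3; lmFit, eBayes, defaults) over 22180 genes and all 7 arrays, two-sided, with Benjamini-Hochberg adjustment over all genes and a threshold of 0.05. It was checked on simulated data with independent genes and changes of at least 1 log2 unit. Nearly all member differences were smaller, so the check does not cover falls of their size. Figures used Python 3.11.15 and matplotlib 3.10.9. P-values measure the spread between these samples.

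The members, lists and alternatives were chosen with earlier results of these data known. Named genes are all called members, the extremes by change and level, paralog pairs, members fixed by name, and the 2 most changed called genes of each list, and the 3 members and 3 other genes closest to the members' median by correlation; Eif3i, Eef1a1, Eef2, Mtor, Larp1 and B2m were named after their values were seen. Rpl13a, Rpl10 and Rpl36a were not analysed here.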

Additional observations from a re-analysis of the deposited data

Results flagged for a closer look

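In 7 of the 67 members an uninjured array stood apart from the other 3 by Dixon's criterion, which chance meets in about 1 of 20 groups. Those with a called fall were Rpsa, where uninjured array 2 lay at 11.14 and the others at 10.96, and Rps18, where array 4 lay at 8.18 and the others at 8.29 to 8.30. In both genes the blastema arrays lay below all uninjured arrays. The other 5 were not called: Rpl11 (array 4 at 5.98, others 5.80 to 5.83), Rpl22l1 (array 2 at 5.13, others 4.71 to 4.77), Rpl26 (array 1 at 6.67, others 6.18 to 6.26), Rps27 (array 3 at 6.77, others 7.17 to 7.22) and Rps4l (array 2 at 5.98, the others equal at 5.71).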

How the results depend on the processing

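No member was called higher under any alternative run: 0 in all 20, at limma's adjusted p of 0.05. The members that fell numbered 24 (without blastema array 3) to 36 over the 7 omissions of 1 array, 33 without both arrays numbered 1, 23 with the dimmest probe set of each gene and 64 with reference gene scaling. With the replicate number as a block they numbered 17, all among the 37. Deviations from the group means of same-numbered arrays correlated at 0.29, 0.15 and -0.065 over all genes, and uninjured array 3 correlated best with blastema array 1 (0.058). Over the members alone the correlations were 0.31, 0.085 and 0.14. As 1 pair was under 0.1 over all genes, the numbers were not taken as pairs, although the other 2 pairs were each other's best match. The fit with the arrays numbered 1 as a block gave 40, and the other 8 settings gave 34 to 39. The members' median was -0.28 with the dimmest probe set and -0.81 with reference gene scaling, and -0.44 to -0.39 over the omissions. The small minus large subunit difference of medians ran from -0.12 to -0.035 over the omissions. Of the further probe sets 36 were lower with reference gene scaling. Genes of the 6 function lists that fell numbered 19, with 10 (without uninjured array 4 or blastema array 3) to 22 over the omissions, 5 with the replicate block, 31 with the arrays numbered 1 as a block and 91 with reference gene scaling. Over all genes 1034 were lower and 1105 higher, against 304 and 295 with the replicate block, 1560 lower with the arrays numbered 1 as a block, and 365 to 1009 lower and 457 to 1286 higher over the omissions. Of results called under at least 1 of the settings compared, signs changed with the dimmest probe set in Rpl19 (0.14), Rpl3 (0.10), Rpl35 (0.16) and Rps28 (0.11), and with reference gene scaling in Rpl22l1 (-0.35), Rpl28 (-0.33), Myc (-0.060) and Tsc2 (-0.085). Members called under neither also crossed 0, among them Rpl21 with the dimmest probe set (0.054) and Rps23 (-0.37) and Rpl39l (-0.33) with reference gene scaling. The dimmest probe set changes nothing for the 42 members with a single probe set, and reference gene scaling shifts every gene down; other causes were not tested. Signal near background limits the members under a level of 7.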
